A study of Danio rerio with 4 samples.

Results

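The endothelin system was followed through 8 zebrafish genes: the ligand genes *edn1*, *edn2* and *edn3b*, the receptor genes *ednraa*, *ednrab*, *ednrba* and *ednrbb*, and *ece1*, which encodes an endothelin-converting enzyme. They were chosen by name, and each was present among the 32520 Ensembl genes of the count files. Of the 8 genes, 5 had reads (*edn1*, *edn2*, *ece1*, *ednraa* and *ednrab*) and 3 had 0 counts in every library. The libraries came from *kdrl:eGFP* endothelial cells sorted from the ventricles of adult zebrafish at 7 days post-amputation (dpa), with 2 libraries for each group. CtrlK fish carried a silent dominant-negative *Xenopus* Brg1 cassette, named ubi:loxp-DsRed-STOP-loxp-DN-xBrg1, and the reporter kdrl-eGFP, but no Cre. DNK fish carried that cassette and the reporter together with kdrl:CreER, which removes the stop in endothelial cells after tamoxifen treatment. Fish of both groups were given 4-HT (hydroxytamoxifen), and then the apex of the ventricle was removed. The study describes the timing both as 3 days of treatment before surgery and as a shorter bath with surgery 3 days later. Hearts were pooled before sorting, and the *kdrl* promoter drives both the recombinase and the sorting reporter, so the sort selects on the promoter that also drives the recombinase.

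Endothelins are short vasoactive peptides that are made as long precursors. In mammals, furin-type proteases release big endothelin from the precursor, and endothelin-converting enzyme then cuts it to the active peptide. The peptides act on G protein-coupled receptors of types A and B. The A type binds the products of endothelin 1 and endothelin 2 and is best known from smooth muscle, cardiac muscle and neural crest derivatives, while the B type, which also binds endothelin 3, is known from mammalian endothelium and from pigment cells. Endothelial cells are the main source of endothelin 1 in mammalian vessels, and in zebrafish *edn1* is known for patterning the lower jaw.

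Total counts lay between 25189862 and 28770727 for the 4 libraries, at which 3 counts equal 0.103 to 0.127 CPM (counts scaled to a common library size, here with TMM factors). Endothelial genes were abundant in all of them, with 19725 to 28519 counts for *kdrl* and 18930 to 26099 for *cdh5*, although *lyve1b*, a lymphatic marker, was at 0. Their summed level was 7439 to 8303 CPM, and of 21 tested endothelial markers 3 were called higher in DNK (*flt1*, *vwf* and *aqp1a.1*) and 5 lower (*kdrl*, *pecam1*, *egfl7*, *plvapb* and *apln*). *kdrl*, whose promoter drives the sorting reporter, had a log2 fold change of -0.47 (edgeR adjusted p = 0.011). Of the 21 markers, 15 had a negative log2 fold change and 6 a positive one. That of *plvapb* was -3.90. *plvapa* had 5937 and 10022 counts in CtrlK and 452 and 156 in DNK (log2 fold change -4.80). It was not called by edgeR (adjusted p = 0.067) but was by DESeq2 (adjusted p = 2.9e-10). Markers of other heart cells were counted too. Together, 14 cardiomyocyte markers took 1.505% and 0.528% of the counts in CtrlK1 and CtrlK2 and 0.200% and 0.0739% in DNK1 and DNK2. No count in these files measures the *Xenopus* transgene. The more abundant of the 2 IDs named SMARCA4, the zebrafish gene for Brg1, had 621 and 756 counts in CtrlK and 1153 and 798 in DNK (log2 fold change 0.40, edgeR adjusted p = 0.27).

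To ask whether endothelial inhibition of Brg1 was accompanied by altered endothelin expression, DNK was compared with CtrlK. Of the 5 members with reads, *edn1* rose 1.93-fold in DNK and no member was called lower (edgeR's quasi-likelihood test, adjusted p under 0.05). Among all 17151 tested genes, 4.22% were called higher and 4.23% lower by this rule, 8.45% in all. With DESeq2 on the same genes, *edn1* and *ece1* were called higher and *edn2*, *ednraa* and *ednrab* lower, where 7.41% of all tested genes were called higher and 8.35% lower, 15.8% in all. In every one of the 5 members the libraries of the groups did not overlap, with DNK above CtrlK in 2 and below it in 3, as was also the case for 55.5% of all tested genes, 26.9% above and 28.6% below. All 5 had an unadjusted p under 0.05 in edgeR, against 23.9% of tested genes, 11.3% higher and 12.6% lower. For the gene lists, the 4.22% called higher and 4.23% called lower over all tested genes are the shares to set beside each count. Because these are bulk libraries of sorted cells, fewer cells of a type and less RNA per cell cannot be told apart.

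**Figure D1:**
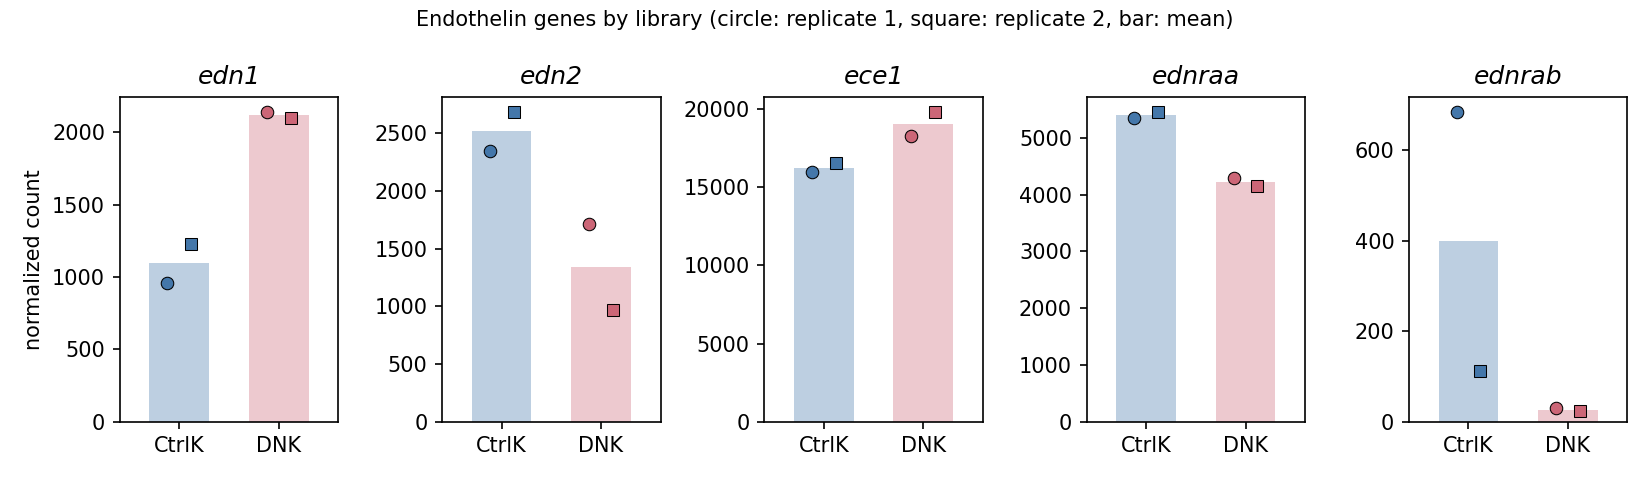
Normalized counts (counts scaled by library size and TMM factor) of the 5 endothelin genes with reads, in CtrlK and DNK; points are single libraries and bars are means of 2, on axes that start at 0. Both DNK libraries lie above both CtrlK libraries for *edn1* and *ece1* and below them for *edn2*, *ednraa* and *ednrab*, and CtrlK1 stands apart for *ednrab*.

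Among the ligands, *edn1* (ENSDARG00000036912), which encodes endothelin 1, gave 839 and 1313 counts in CtrlK1 and CtrlK2 and 2293 and 2085 in DNK1 and DNK2. Both DNK libraries were thus well above both CtrlK libraries, and the lowest DNK level was 1.70 times the highest CtrlK level after normalization. The mean normalized count was 1096 ± 190.1 for CtrlK (SD, n = 2) against 2118 ± 30.2 for DNK (SD, n = 2). This was a log2 fold change of 0.95 with a standard error of 0.16 (adjusted p = 0.013, edgeR's quasi-likelihood test). DESeq2 gave the same log2 fold change of 0.95 with an adjusted p of 6.8e-06. The size depended on which CtrlK library was kept: without CtrlK1 the log2 fold change was 0.78, and without CtrlK2 it was 1.14. Without DNK1 or DNK2 it was 0.94 and 0.96. Each of these fits leaves 1 library in a group, so they cannot settle how firm the call is.

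The second ligand, *edn2* (ENSDARG00000070578), gave 2048 and 2863 counts in CtrlK1 and CtrlK2 and 1833 and 960 in DNK1 and DNK2. Its levels ran opposite to those of *edn1*, with both DNK libraries below both CtrlK libraries, but DNK1 and DNK2 themselves differed by 1.77-fold. The mean normalized count was 2516 ± 237 for CtrlK (SD, n = 2) against 1338 ± 527 for DNK (SD, n = 2), and the log2 fold change of -0.91 (standard error 0.26) was not called by edgeR's quasi-likelihood test (adjusted p = 0.092). DESeq2 called it at an adjusted p of 0.0055 with the same log2 fold change. The size of the difference depended on which DNK library was kept. Without DNK2 the log2 fold change was -0.56, and without DNK1 it was -1.38.

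The third ligand, *edn3b* (ENSDARG00000086669), a copy of the endothelin 3 gene, had 0 counts in all 4 libraries, which allows a level of at most 0.103 to 0.127 CPM. The same was true of *edn3a*, the other zebrafish copy, which was taken from the list of processing genes. Ligand reads in these sorted cells therefore came from *edn1* and *edn2*.

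Since both ligands were counted in the same library, their share of the ligand reads does not depend on the scaling between libraries. Of the reads of *edn1* and *edn2* together, *edn1* held 29.1% in CtrlK1 (95% Wilson interval 27.4% to 30.7%) and 31.4% in CtrlK2 (30.1% to 32.9%). It held 55.6% in DNK1 (54.1% to 57.1%) and 68.5% in DNK2 (66.8% to 70.1%). *edn1* was thus the minor part of the ligand reads in both CtrlK libraries and the major part in both DNK libraries. These are shares of reads. Gene lengths were not used, so the shares do not rank *edn1* and *edn2* by number of transcripts. The group means were 30.3% ± 1.68 for CtrlK and 62.0% ± 9.12 for DNK (SD over 2 libraries each), and an exact two-sided permutation test on 2 against 2 libraries cannot give a p under 0.33. The intervals cover counting error only. Added up, the reads of both ligands amounted to 3310 and 3915 normalized counts in CtrlK and 3850 and 3062 in DNK, so that the groups overlapped in the total although their make-up did not.

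**Figure D2:**
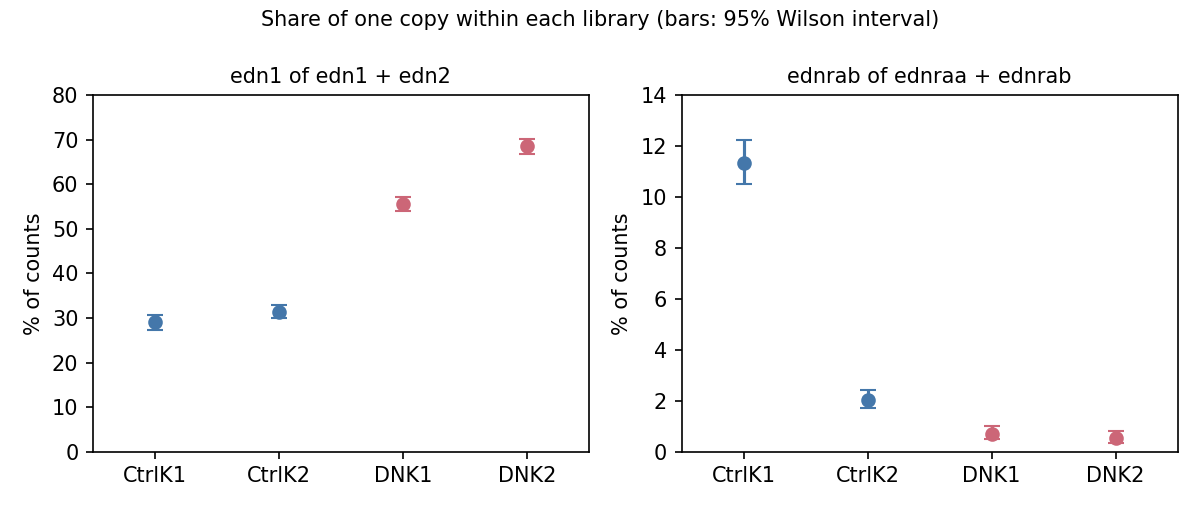
Percent of the *edn1* plus *edn2* reads that belonged to *edn1* (left) and of the *ednraa* plus *ednrab* reads that belonged to *ednrab* (right), for each library, with 95% Wilson intervals that cover counting error only. The *edn1* share lies at 29.1% and 31.4% in CtrlK and at 55.6% and 68.5% in DNK, and the *ednrab* share falls apart within CtrlK, at 11.3% and 2.04%.

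The converting enzyme *ece1* (ENSDARG00000061737), which in mammals makes the active peptide from big endothelin, gave 13920 and 17653 counts in CtrlK1 and CtrlK2 and 19613 and 19702 in DNK1 and DNK2. Both DNK libraries were higher once scaled to depth, but by little. The mean normalized count was 16255 ± 416 for CtrlK (SD, n = 2) against 19056 ± 1070 for DNK (SD, n = 2). The log2 fold change of 0.23 (standard error 0.08, 95% interval 0.05 to 0.41) did not pass edgeR's test (adjusted p = 0.12), while DESeq2 gave an adjusted p of 0.046. An ID paired with the human-style symbol ECE2, a second converting enzyme, had 1197 to 1720 counts and a log2 fold change of -0.24 (adjusted p = 0.37). It could not be given to one of the zebrafish copies *ece2a* and *ece2b*.

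Of the A-type receptors, *ednraa* (ENSDARG00000011876) held most of the reads. It gave 4665 and 5819 counts in CtrlK1 and CtrlK2 and 4604 and 4137 in DNK1 and DNK2. The replicates lay close together, with a 1.02-fold difference between the CtrlK libraries and 1.03-fold between the DNK libraries after normalization. The means were 5402 ± 75.1 normalized counts for CtrlK (SD, n = 2) against 4228 ± 95.7 for DNK (SD, n = 2), a CtrlK level 1.28 times that of DNK. The log2 fold change of -0.35 (standard error 0.09, 95% interval -0.57 to -0.13) had an adjusted p of 0.065 in edgeR's quasi-likelihood test and 0.0052 in DESeq2. The small difference depended on scaling: with total counts only it was -0.28 (adjusted p = 0.20).

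The second A-type receptor, *ednrab* (ENSDARG00000062262), gave 597 and 121 counts in CtrlK1 and CtrlK2 and 33 and 23 in DNK1 and DNK2. CtrlK1 stood far above the rest, at 6.03 times the level of CtrlK2, and both DNK libraries were lower than CtrlK2. The log2 fold change was -3.88 with a standard error of 0.95 and a 95% interval of -6.29 to -1.46, which edgeR did not call (adjusted p = 0.076) and DESeq2 did (adjusted p = 9.4e-06). Without CtrlK1 the log2 fold change was -2.07 (adjusted p = 0.24), and without CtrlK2 it was -4.65 (adjusted p = 0.0021). The direction was kept in each case, but the size was set largely by CtrlK1. Of all A-type receptor reads, *ednrab* held 11.3% (95% Wilson interval 10.5% to 12.2%) and 2.04% (1.71% to 2.43%) in the CtrlK libraries, against 0.712% (0.507% to 0.998%) and 0.553% (0.369% to 0.828%) in the DNK libraries.

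The order of the libraries for *ednrab* was that of the summed cardiomyocyte markers. Single genes of other lists had this order too, among them *ptprc* (leukocyte), *hbba2* (erythrocyte), *postnb* (fibroblast) and the less abundant ID named TAGLN (mural). Of the 14 cardiomyocyte markers tested, 12 had both DNK libraries below both CtrlK libraries, against 28.6% of all tested genes. edgeR called 1 of these markers, *nkx2.5*, lower, where 4.23% of all tested genes were. DESeq2 called 5 of them lower and 0 higher, where 8.35% and 7.41% of all tested genes were. Their summed level was 15985 and 5241 CPM in CtrlK and 1936 and 728 CPM in DNK. Per 1000 reads of these markers, *ednrab* had 1.58 and 0.796 reads in CtrlK and 0.585 and 1.17 in DNK, so that the groups overlapped on this scale. The make-up of the scale differed between libraries, however. *tpm4a* gave 28763 and 22141 of the marker reads in CtrlK and 16704 and 14759 in DNK, most of them in DNK2. *myl7* gave 133259 and 43635 in CtrlK against 14843 and 1438 in DNK. The groups did not overlap per 1000 reads of the mural markers (38.0 and 6.02 against 2.28 and 1.54) or of the endothelial markers (3.21 and 0.502 against 0.152 and 0.113). Most of the mural reads came from a single ID named TAGLN, with 11721 and 15907 counts in CtrlK and 12313 and 12864 in DNK. The less abundant TAGLN ID had 132 and 28 counts in CtrlK and 19 and 5 in DNK. The make-up of the endothelial reads differed between the groups too. *plvapb* gave 5550 and 10399 of them in CtrlK and 590 and 522 in DNK, and *vwf* 20581 and 23585 against 41490 and 38712. CtrlK1 was also set apart by *acta2*, a smooth muscle actin, with 918 counts against 16 in CtrlK2, 25 in DNK1 and 3 in DNK2, and by *postnb*, a periostin gene of activated fibroblasts, with 818 against 18, 1 and 0. Over the list of mural and smooth muscle markers, 2 of 10 tested genes were called lower and none higher, and their summed level was 663 and 693 CPM in CtrlK and 498 and 552 CPM in DNK. Blood markers were low in DNK as well, with a summed level of 196 and 47.4 CPM in CtrlK and 3.29 and 14.2 CPM in DNK for 4 erythrocyte genes and of 8.31 and 17.6 against 1.72 and 1.44 CPM for 4 thrombocyte genes. The fibroblast and epicardial list did not move one way. Its summed level was 2361 and 2540 CPM in CtrlK and 3203 and 3462 CPM in DNK, with *pdgfra* and the collagen genes *col1a1a*, *col1a2* and *col5a1* called higher, while 4 of the 10 tested genes, *tcf21*, *tbx18*, *postnb* and *dcn*, had both DNK libraries below both CtrlK libraries without being called by edgeR. The leukocyte list overlapped in its sum, with 4 of 10 tested genes called lower. The part of such cells in the *ednrab* reads was not tested. For *ednraa*, the level per 1000 reads of the cardiomyocyte markers ranged from 12.3 in CtrlK1 to 210.3 in DNK2. Per 1000 reads of the mural markers, *ednraa* had 297 and 290 reads in CtrlK and 317 and 277 in DNK, so that the groups overlapped. They did not overlap per 1000 reads of the endothelial markers (25.1 and 24.2 against 21.2 and 20.3). The part of other cell types in the *ednraa* reads was not tested either.

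**Figure D3:**
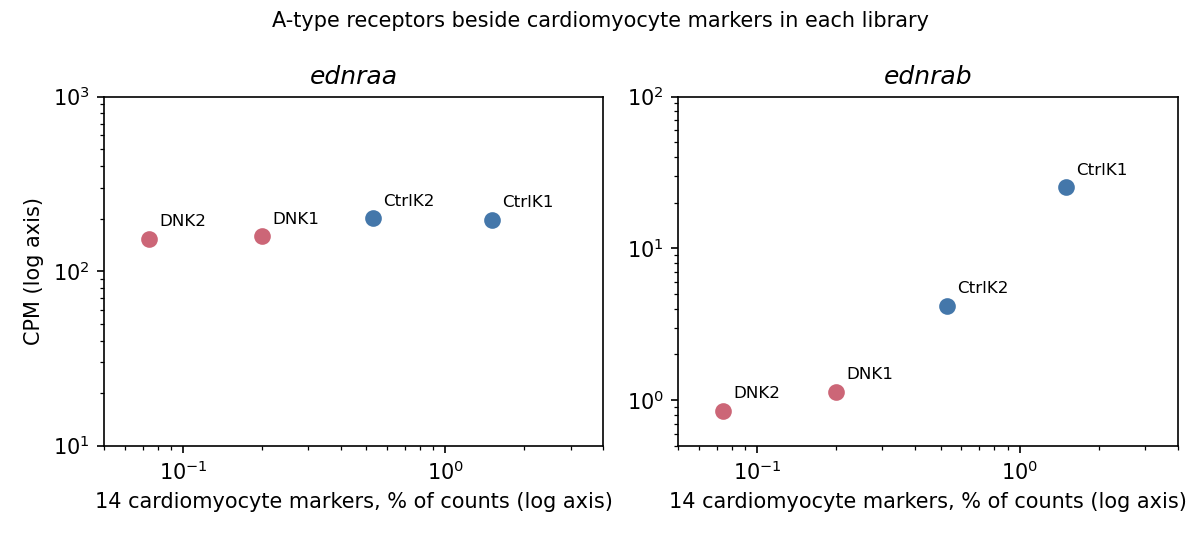
CPM of *ednraa* (left) and *ednrab* (right) against the percent of counts taken by 14 cardiomyocyte markers in the same library, both axes logarithmic, one point per library. *ednrab* follows the order DNK2, DNK1, CtrlK2, CtrlK1 of the markers. *ednraa* lies at 197 and 201 CPM in CtrlK1 and CtrlK2 and at 158 and 153 CPM in DNK1 and DNK2.

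For the B type, the annotation held 2 IDs named EDNRB (ENSDARG00000089334 and ENSDARG00000053498), taken as *ednrba* and *ednrbb*, although which is which was not settled. Both had 0 counts in each of the 4 libraries, that is, at most 0.103 to 0.127 CPM. Receptor reads of the sorted cells thus came only from the A-type genes. In zebrafish, B-type receptors are known from pigment cells, and pigment and Schwann cell markers were also near 0, with a summed level of 1.24 to 2.95 CPM over 11 genes and with *tyr*, *foxd3* and *mbpa* at 0.

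The genes that process or break down endothelins were compared next. Of 12 genes matched, 9 were tested, and 1 was called higher and none lower, with a median log2 fold change of 0.07 against -0.02 over all tested genes. The called gene was *furina* (ENSDARG00000062909), a proprotein convertase of the furin type, with 1117 and 1543 counts in CtrlK1 and CtrlK2 and 4132 and 3926 in DNK1 and DNK2. It rose by 1.52 on the log2 scale (standard error 0.12, adjusted p = 0.00083, edgeR's quasi-likelihood test), with the DNK libraries far above the CtrlK libraries. Its sister copy *furinb*, with 273 to 493 counts, overlapped between groups (log2 fold change 0.07, adjusted p = 0.92). *kel*, whose human counterpart cuts big endothelin 3, had 118 and 45 counts in CtrlK and 227 and 212 in DNK (adjusted p = 0.23). *mmel1*, a relative of neprilysin, had 50, 82, 36 and 0 counts in CtrlK1, CtrlK2, DNK1 and DNK2 (adjusted p = 0.49).

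Downstream of the receptors, 24 of the 26 matched genes of G proteins, phospholipase C, IP3 receptors, protein kinase C, arrestins, receptor kinases, TRPC6 channels and regulators of G protein signaling were tested. Over all tested genes, edgeR called 4.22% higher and 4.23% lower, and DESeq2 7.41% and 8.35%. DESeq2 called 2 of the 24 genes higher and 3 lower. In edgeR, none of the 24 was called higher and 1 was called lower. This was *rgs5a*, a brake on Gq and Gi signaling that is also a pericyte marker, with 651 and 994 counts in CtrlK and 25 and 4 in DNK (log2 fold change -5.91, standard error 0.63, adjusted p = 0.0037). The sister copy *rgs5b* had 1021 and 877 counts in CtrlK and 106 and 619 in DNK (log2 fold change -1.47, edgeR adjusted p = 0.53). In the mural list, 9 of 10 tested genes had a negative log2 fold change, and the median was -0.84. Of the 10, 5 had both DNK libraries below both CtrlK libraries, against 28.6% of all tested genes. The 2 genes called lower were *rgs5a* and *myh11a*. The 1 positive gene was *notch3*, with a log2 fold change of 0.37, and *pdgfrb*, *abcc9*, *cspg4* and *acta2* overlapped between the groups. The part of mural cells in the *rgs5a* reads was not tested. The median log2 fold change of the 24 genes was -0.40, against -0.02 over all tested genes, with 9 positive and 15 negative. Genes with few counts were among the negative ones, such as *gnaq* (8 to 44 counts), *gnai3* (15 to 46) and *arrb1* (5 to 17). Genes with more counts went both ways. The more abundant ID named GNAI2 and *arrb2b* had log2 fold changes of 0.22 and 0.27, and *itpr2* and *prkcbb* of -0.75 and -0.55. *plcb3*, the phospholipase C that carries Edn1 signals in the zebrafish jaw, had 1243 and 1597 counts in CtrlK and 2153 and 1569 in DNK (log2 fold change 0.30, adjusted p = 0.31).

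In mammalian endothelium, transcription of the endothelin 1 gene is known to be driven by AP-1, GATA, Smad and hypoxia-inducible factors and lowered by the flow-responsive factor KLF2. Of 25 tested zebrafish genes of a list that holds these families and *nfatc1*, *klf4* and the genes of FOXO1, NF-kappaB and VEZF1, 4 were called higher and 3 lower in DNK, with a median log2 fold change of -0.01. The AP-1 genes split. *junbb*, *fosl1a* and *junba* rose by 0.48, 0.49 and 0.35 on the log2 scale, while *fosl2* and *jun* fell by 0.61 and 0.45 (adjusted p between 0.015 and 0.044, edgeR's quasi-likelihood test). *smad3a*, a mediator of TGF-beta signals, rose by 0.51 (adjusted p = 0.046). *klf2b* fell by 0.92 (standard error 0.09, adjusted p = 0.0015), from 22694 and 32099 counts in CtrlK to 15704 and 14897 in DNK, whereas its copy *klf2a* had a log2 fold change of 0.12 (adjusted p = 0.35). The hypoxia-inducible factor gene *hif1aa* had a log2 fold change of -1.66, with an adjusted p of 0.059 in edgeR and 0.011 in DESeq2. *hif1ab*, *gata2a* and *gata4* had log2 fold changes of -0.03, 0.23 and 0.14 and were not called.

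Among 27 tested genes of other vasoactive systems, 4 were called higher and 3 lower, with a median log2 fold change of -0.18. *ace*, the angiotensin-converting enzyme, rose by 0.96 on the log2 scale (adjusted p = 0.0042), and *ptgs2b*, a prostaglandin synthase, by 1.36 (adjusted p = 0.0015). *calcrla*, a receptor of adrenomedullin peptides, rose by 1.72 (adjusted p = 0.025). The apelin ligand gene *apln* and the receptor genes *aplnra* and *aplnrb* fell by 1.66, 0.67 and 0.89 (adjusted p = 0.0015, 0.023 and 0.021). The fourth higher gene was *npr2*, a natriuretic peptide receptor, with 679 and 1074 counts in CtrlK and 1859 and 1698 in DNK (log2 fold change 0.95, adjusted p = 0.017).

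**Figure D4:**
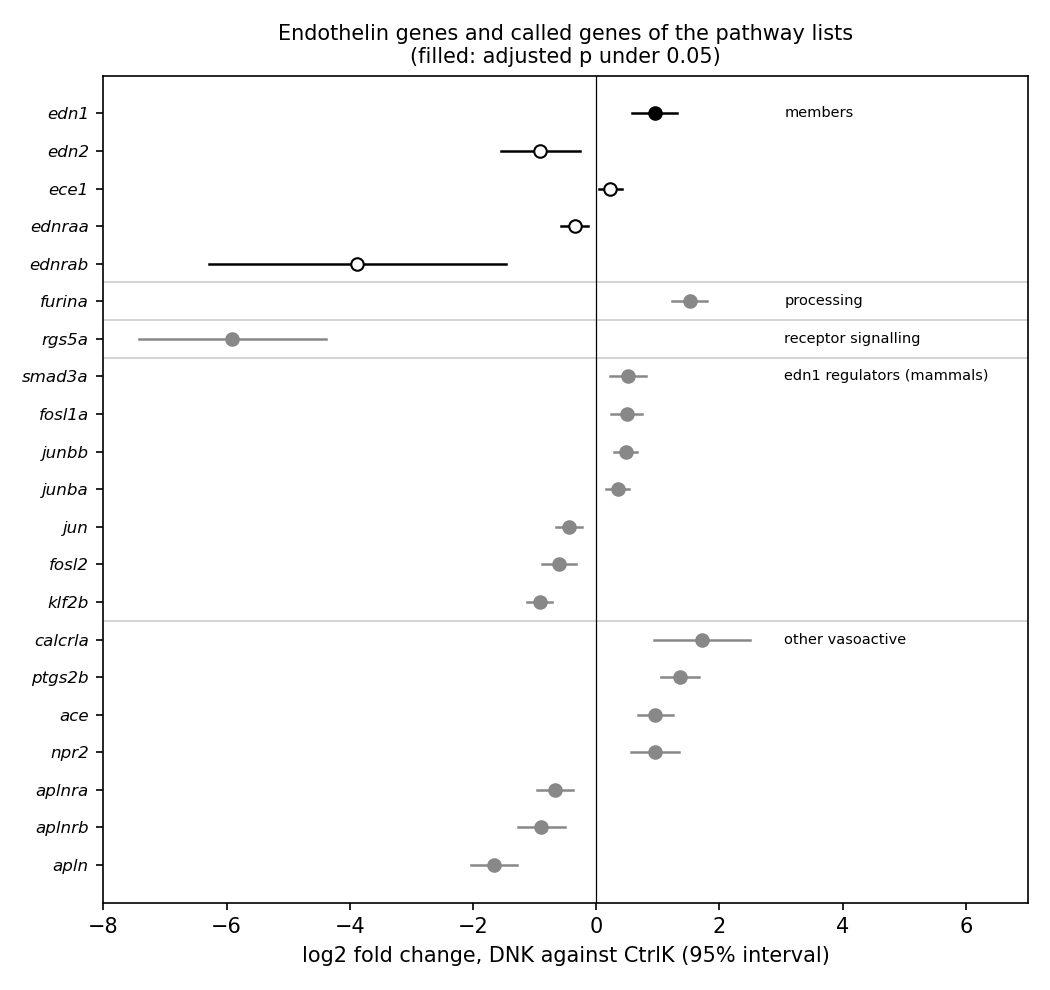
Log2 fold change of DNK against CtrlK with its 95% interval from edgeR's quasi-likelihood fit, for the 5 endothelin genes with reads (black) and for every called gene with a mean of at least 50 counts in the lists of processing, receptor signalling, *edn1* regulator and other vasoactive genes (grey). Filled points passed an adjusted p under 0.05; *edn1* at 0.95 is the only filled point among the members, and *furina* at 1.52 the only one among the processing genes.

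When the profile over the 4 libraries was compared with that of every tested gene with a mean of at least 50 counts, *npr2* also lay nearest to *edn1*, at a Euclidean distance of 0.012 on the centred log2 CPM scale. RABL2B and *znf385a* followed at 0.043 and 0.044. Over 4 libraries such likeness describes these samples only.

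The genes next to the ligand genes were examined after the members' values had been seen, using gene order in the assembly GRCz12tu for names only. On one side, *edn1* has *hivep1* as its neighbour and *edn2* has the related *hivep3a*, both zinc finger genes. *hivep1* had 2135 and 2908 counts in CtrlK and 2665 and 1974 in DNK, so the groups overlapped beside the risen *edn1* (log2 fold change -0.21, adjusted p = 0.45). *hivep3a* had 0 and 1 counts in CtrlK and 118 and 52 in DNK and was called higher (adjusted p = 0.016, edgeR's quasi-likelihood test). It passed the filter on low counts only through the DNK libraries, where it was high, so little weight can be put on this call. *edn2* beside it had a negative log2 fold change that edgeR did not call. On the other side of *edn2*, *phactr4a* had 727 and 714 counts in CtrlK and 971 and 933 in DNK (log2 fold change 0.30, edgeR adjusted p = 0.38). On the other side of *edn1*, si:ch211-133n4.9 had 0 and 0 counts against 7 and 1 and was not tested. *alpl*, a neighbour of *ece1*, had 3007 and 4378 counts in CtrlK and 5176 and 4951 in DNK (log2 fold change 0.38, adjusted p = 0.097). *tmem184c*, a neighbour of *ednraa*, had a log2 fold change of -0.64 (edgeR adjusted p = 0.53).

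**Figure D5:**
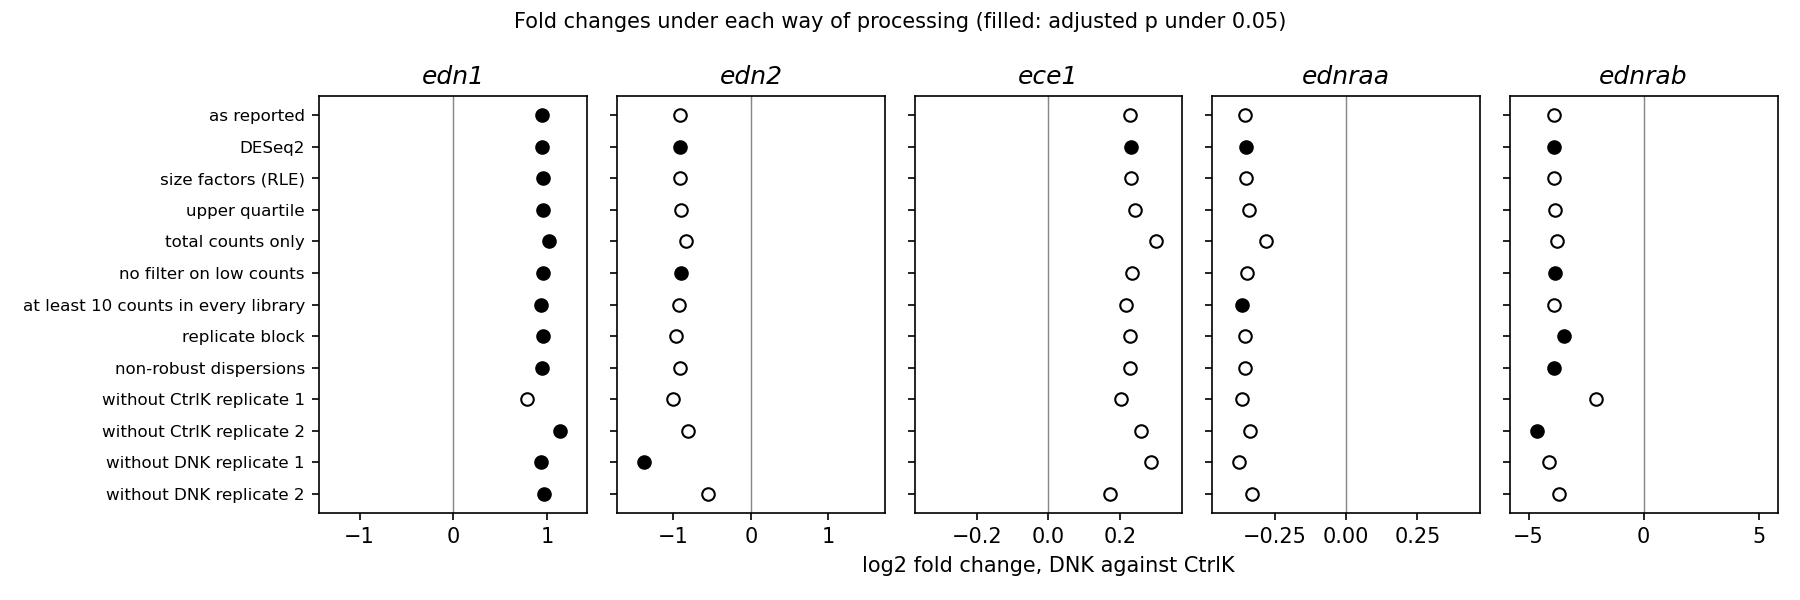
Log2 fold change of each endothelin gene with reads as reported and under 12 other ways of processing, one row each; filled points passed an adjusted p under 0.05 and each panel has its own horizontal scale. All points of a gene lie on one side of 0, *edn1* is filled in all but the fit without CtrlK replicate 1, and *ednrab* moves most, between -4.65 and -2.07.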

How the data were processed

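RNA of sorted *kdrl:eGFP* cells (30 ng per library) was sequenced in 2 CtrlK and 2 DNK libraries, grouped by their titles. The DNK files carry the letters DNF in place of DNK, and the titles were followed. A supplementary sheet of the study numbers the libraries of that group differently, so which DNK library is which replicate was not settled. The authors mapped reads with HISAT2 version 2.2.1 to GRCz11, kept unique alignments and counted them per Ensembl gene with featureCounts version 2.0.1, and the deposited values are these raw counts without normalization. Whether strand was used was not given in the sources used here. Unique mapping can lower counts of near-identical copies.

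IDs were paired with symbols through the identifier table, the study's table of names and RefSeq synonyms (29207 of 32520 IDs named), and 4964 IDs carry a human-style symbol that could not be given to 1 copy. The 17151 genes that passed filterByExpr were scaled by TMM. The two-sided quasi-likelihood test of edgeR version 4.0.16 (R version 4.3.3), robust and with group as the only term, was adjusted over them by Benjamini-Hochberg. CPM and normalized counts use the TMM-scaled library sizes. The standard error is the size of the log2 fold change divided by the square root of F. The study's FPKM filter was replaced by filterByExpr, since exon lengths were not used here, and for the same reason levels were not compared between genes. DESeq2 version 1.42.0 was an alternative. Both tests were checked on simulated counts for the sign and size of known changes. The simulated spread was the average for a gene's level, without outlier libraries, so the check does not cover such libraries. In both tests, p-values rest on the spread between 2 libraries per group, moderated with information from all tested genes. The labels do not say whether the libraries were separate pools of fish beyond calling them replicates. The study describes them as biological replicates. Replicates differed by more than counting error (chi-square 54.4 and 23.9 times its degrees of freedom).

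Named genes were the 8 members, every called gene of 4 pathway lists whose mean reached 50 counts, and the 3 genes nearest in profile to a called member. Other genes are named as values of the same lists. The members and lists were chosen with earlier results of these data known. Python version 3.11.15 and Matplotlib version 3.10.9 were used for shares and figures.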

Additional observations from a re-analysis of the deposited data

How the results depend on the processing

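All 12 alternatives kept the direction of the 5 members with reads. DESeq2 called 2 members higher and 3 lower. The members called lower were 2 without a filter on low counts (*edn2* and *ednrab*), 1 with at least 10 counts in every library (*ednraa*), 1 with non-robust dispersions (*ednrab*) and 1 with the replicate block (*ednrab*, adjusted p = 0.015). With single libraries left out, between 0 and 1 members were called higher and between 0 and 1 lower. Over all genes, 1271 were called higher and 1432 lower with DESeq2, and 1315 and 1775 without the filter, against 723 and 726 in the reported fit. Without single libraries these counts lay between 354 and 425 and between 328 and 567. The adjusted p over the 8 alternatives with all libraries lay between 6.9e-07 and 0.021 for *edn1*, 1.0e-06 and 0.13 for *edn2*, 0.0052 and 0.20 for *ednraa*, 3.9e-16 and 0.12 for *ednrab*, and 0.046 and 0.16 for *ece1*. The replicate numbers pair nothing in the labels, and deviations of same-numbered libraries correlated at 0.09. With the replicate block, 747 genes were called higher and 894 lower, and 1 member higher. The cause of these shifts was not tested. Fits without 1 library assume that the lone library of a group varies like those of the other group. Depth limits the genes at 0 to at most 0.103 to 0.127 CPM.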
